A study of Mus musculus with 4 samples.

Results

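CpG methylation was described around 9 mouse genes of the 2-cell-stage programme: Zscan4c, Zscan4d and Zscan4f, Duxf3, Zfp352, Tcstv1 and Tcstv3, and Tdpoz3 and Tdpoz4. The members were given by name, and all 9 of the 49554 annotated genes on the autosomes and X were found. A gene region was the gene with 5 kb on both sides, in mm10 coordinates, and its level was the percentage of methylated reads after all reads of its CpGs were pooled within a library. A read that covers several CpGs is counted at each of them, so pooled numbers of reads are CpG calls and exceed the number of molecules. The study read cytosine methylation by whole-genome bisulfite sequencing, which does not separate 5-methylcytosine from 5-hydroxymethylcytosine. It compared 2 Ogt iKO libraries, from Ogt fl/fl mouse embryonic stem cells grown for 6 days with 4-OHT (4-hydroxytamoxifen), with 2 control libraries from Ogt fl/fl cells grown without it. The question was how losing OGT, the enzyme that attaches O-GlcNAc to proteins and a partner of the TET dioxygenases, alters DNA methylation.

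Both groups were grown on feeder fibroblasts that were taken out by sorting, and the treated cells were also selected for YFP. Drug exposure, the YFP gate and loss of Ogt therefore coincide in these 4 libraries and cannot be told apart. Whether Ogt was deleted in the treated cells was not analysed here. The labels do not say that replicates came from separate cultures, so p-values speak for these libraries only. Those of the main fit, described below, rest on CpG calls that can share reads and on a spread between libraries moderated across all features. RNA was not measured in these libraries, so neither expression of the 9 genes nor the identity of the cells was read from them.

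The 2-cell-stage programme is the burst of transcription that opens the zygotic genome of the mouse embryo, and a small, changing minority of cells in embryonic stem cell cultures enters a similar state. Duxf3 (Dux) encodes a double-homeobox transcription factor that sits at the top of this programme and binds near many of its genes and near MERVL retroviral elements. The Zscan4 genes encode zinc finger and SCAN domain proteins known for their roles in telomere elongation and genome stability in stem cells, and Zscan4 expression has been linked with transient DNA demethylation. Zfp352 encodes a zinc finger protein, Tcstv1 and Tcstv3 belong to a small 2-cell-stage family, and Tdpoz3 and Tdpoz4 encode TD and POZ domain proteins. Several of these families lie in clusters of near-identical copies, where short reads are hard to place.

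The upstream sequences of the 3 Zscan4 genes are shown because the CpGs in the Zscan4d window differed between the groups, and because their likeness bears on how reads were placed. RefSeq windows of GRCm38.p6, the assembly behind mm10, matched 6 of the 9 members. The 250 bases before the start of transcription follow, 5′ to 3′ on the gene's strand, with every CG in capitals.
Zscan4c, chr7:11005495-11005744, plus strand: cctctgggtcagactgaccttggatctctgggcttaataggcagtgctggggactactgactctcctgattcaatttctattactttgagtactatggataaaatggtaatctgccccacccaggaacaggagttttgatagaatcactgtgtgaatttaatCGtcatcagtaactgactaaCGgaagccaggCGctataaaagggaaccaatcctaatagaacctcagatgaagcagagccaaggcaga
Zscan4d, chr7:11166149-11166398, minus strand: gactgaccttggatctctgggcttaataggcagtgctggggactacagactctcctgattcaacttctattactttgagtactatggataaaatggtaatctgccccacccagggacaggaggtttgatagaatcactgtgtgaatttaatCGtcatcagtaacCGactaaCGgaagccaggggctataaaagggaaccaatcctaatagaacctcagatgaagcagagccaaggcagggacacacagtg
Zscan4f, chr7:11397665-11397914, plus strand: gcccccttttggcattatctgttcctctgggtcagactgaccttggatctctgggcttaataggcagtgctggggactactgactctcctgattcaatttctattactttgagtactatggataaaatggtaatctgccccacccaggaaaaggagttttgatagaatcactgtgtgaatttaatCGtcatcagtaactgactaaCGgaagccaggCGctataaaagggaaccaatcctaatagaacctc

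Each window held 3 CpGs. Aligned to each other, Zscan4c and Zscan4f were identical at 226 of 227 bases (99.6%) and shared all 3 CpGs. Zscan4c and Zscan4d were identical at 232 of 239 bases (97.1%) and shared 2 CpGs, and Zscan4d and Zscan4f at 209 of 216 bases (96.8%), again with 2 shared CpGs. The letters TATAAA, familiar from core promoters, began 54 bases before the start in Zscan4c, 65 before it in Zscan4d and 31 before it in Zscan4f. In windows that reach 250 bases before and 50 after a start, these letters occurred on either strand in 4473 of 32851 genes (13.6%). The letters TGATTCAAT, the core of the DUX motif, began 184 bases before the start of Zscan4c and 161 before that of Zscan4f, and were not found on either strand in the windows of Zscan4d, Duxf3, Zfp352 and Tdpoz4. They occurred in 37 of the 32851 windows (0.113%). The windows of Zfp352 and Duxf3 held 2 CpGs each in the 250 bases before the start.

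The likeness extended beyond the starts of transcription. Of the CpGs in the Zscan4c region, 32 (49.2%) had a counterpart at the same spacing in the Zscan4f region, where they made up 50.8%. Tcstv1 and Tcstv3 shared 16 CpGs at the same spacing in opposite orientations, 15.7% and 20.3% of their CpGs. The other 34 pairs of members shared 4 to 9.

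The libraries held 64273609 to 79929994 reads over CpGs, a mean of 3.35 to 4.04 reads per listed CpG, and both Ogt iKO libraries were deeper than both controls. The median level of all 49073 tested gene regions was 65.4% and 62.9% in the Ogt iKO libraries and 70.6% and 74.8% in the controls. The difference between the Ogt iKO and control means of these medians was -8.57 points, a genome-wide shift against which the members were read. The median gene region had 3.11 to 3.84 reads per CpG. Among members other than Duxf3 the depth ran from 1.46 to 4.29 reads per CpG, with 92 to 415 reads per region and library. The 95% Wilson intervals of these levels were 6.59 to 16.4 points wide, and those of Duxf3 3.24 to 3.54 points, which covers counting error only and is too narrow, because neighbouring CpGs share reads and reads carry no molecular identifiers.

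Among the members, depth was highest in the Duxf3 region and lowest in the Zscan4f region. Duxf3 had 14.2 to 16 reads per CpG in the 4 libraries, with single CpGs at up to 66 reads. Zscan4c had 2.05 to 2.55 reads per CpG. Zscan4f was the shallowest, with 1.46 to 2.29 reads per CpG. Between 17.5% and 28.6% of its 63 listed CpGs had no read in a given library, and only 24 had a read in every library.

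**Figure D1:**
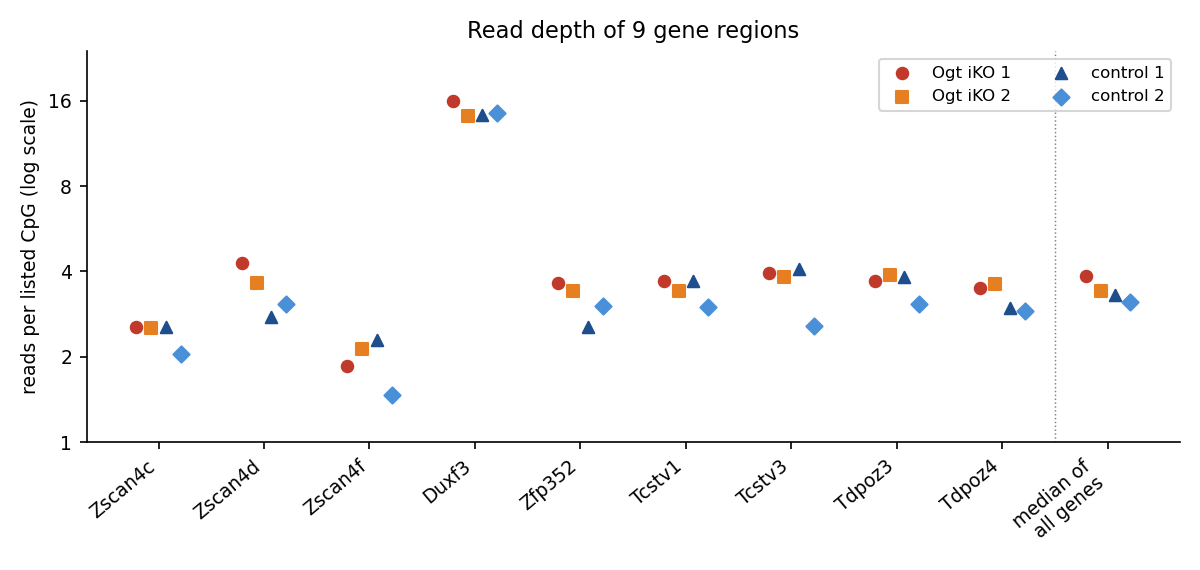
Reads per listed CpG (y axis, log scale) in each of the 9 gene regions and the median of all tested gene regions, with 1 symbol per library. Duxf3 lies at 14.2 to 16 reads per CpG, and Zscan4f lies lowest at 1.46 to 2.29.

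All 9 gene regions had a lower mean level in the Ogt iKO libraries, by 2.60 to 18.6 points, with a median of -6.97 points against -7.66 over all gene regions, of which 96.9% were lower. In 7 of 9 members (77.8%) both Ogt iKO libraries lay below both controls, where 79.9% of all gene regions did the same. Calls came from a quasi-binomial fit of methylated and total reads and required 10 or more points between the group means besides a Benjamini-Hochberg adjusted p under 0.05. Duxf3, Zfp352 and Tcstv1 were called lower, 3 of 9 members, and 13% of all gene regions were. The counts of members that were lower or separated were near the background.

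**Figure D2:**
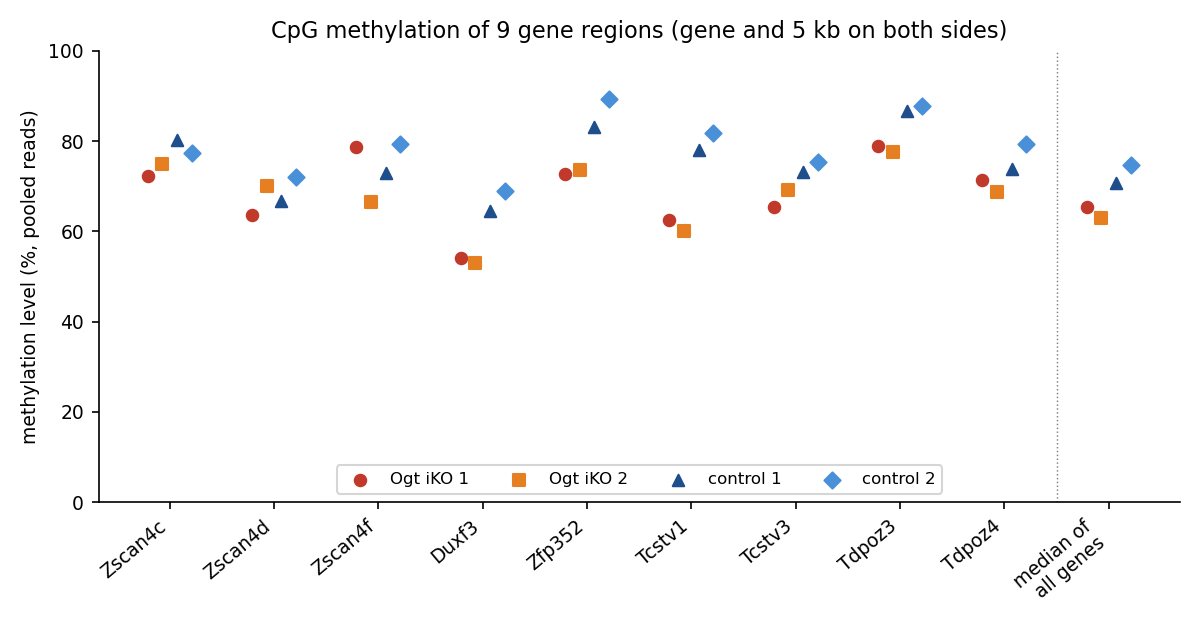
Methylation level (y axis, percent of pooled reads) of each gene region and the median over all tested gene regions, with 1 symbol per library. The Ogt iKO symbols lie below both controls in 7 of the 9 members and overlap them in Zscan4d and Zscan4f.

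Set against the median of all gene regions in the same library, the 9 members split. The difference after this subtraction was below 0 in 4 members and above 0 in 5, from -9.99 points in Tcstv1 to 5.97 in Zscan4d, with a median of 1.60. The subtracted shift was -8.57 points, while the median difference over all gene regions was -7.66. The median region thus itself lies above 0 on this scale. The share of all gene regions above 0 or separated on it was not counted. Tcstv1, Duxf3 (-4.66) and Zfp352 (-4.44) had both Ogt iKO libraries below both controls on this scale. Zscan4d and Tdpoz4 (2.02) had both above, so that their difference was smaller than that of the median region, although unweighted means over CpGs gave -1.23 for Tdpoz4. The two-sided exact permutation test gave 0.333 for these 5 members, the smallest p that 2 libraries against 2 allow. Tcstv3 (1.60), Tdpoz3 (-0.46), Zscan4c (3.44) and Zscan4f (4.97) overlapped between the groups. With 1 library left out, Zscan4d ranged from 1.51 to 10.4 points, Zscan4c from 0.04 to 6.83, Zscan4f from 0.12 to 9.81 and Tdpoz4 from 1.28 to 2.75. Zfp352 ranged from -6.08 to -2.80, while Tcstv1 stayed between -10.2 and -9.79 and Duxf3 between -5.44 and -3.88. The sign was not stable in Tcstv3, at -1.53 without Ogt iKO 2, and in Tdpoz3, at 0.16 without Ogt iKO 1 and 1.13 without control 1, so the split of 4 and 5 depends on single libraries.

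Duxf3, the transcription factor gene, lies on the minus strand at chr10:58229505-58233089. Its region held 215 CpGs and 3048 to 3443 reads per library, and its level was 54.1% and 53.1% in the Ogt iKO libraries and 64.6% and 69.0% in the controls. The Ogt iKO mean of 53.6% ± 0.684 and the control mean of 66.8% ± 3.17 (SD over 2 libraries) gave a difference of -13.2 points, with no overlap. The adjusted p was 0.00089 in the quasi-binomial fit moderated with limma and 0.0563 in the fit of logit levels by limma. The gene body lay at 49.0% and 45.1% in the Ogt iKO libraries against 59.0% and 66.2%, and the flank of lower coordinates, downstream of the gene, lay at 55.2% and 56.7% against 69.8% and 69.9%. In the upstream flank the groups overlapped, with a difference of -2.05 points.

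A minority of very deep CpGs carried most of the Duxf3 reads. Whether all reads counted in this region came from this copy cannot be told from the deposited counts and was not tested. CpGs with over 5 times the library's median depth in any library made up 82 of the 215 (38.1%) and held 78.4% to 81.1% of the reads, while 18912 of 20677079 CpGs genome-wide (0.0915%) were that deep. Their level was 51.3% and 49.7% in the Ogt iKO libraries and 63.6% and 68.2% in the controls, a difference of -15.4 points. The other 133 CpGs had 65.2% and 65.3% against 68.3% and 72.7%, a difference of -5.19 points. Both classes kept the groups apart, but without the very deep CpGs the region was no longer called (adjusted p = 0.246, quasi-binomial fit with limma moderation) and stood at 3.38 points relative to the genome-wide shift, where all CpGs gave -4.66. The unweighted mean over CpGs gave a difference of -9.12 points, close to the genome-wide shift.

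**Figure D3:**
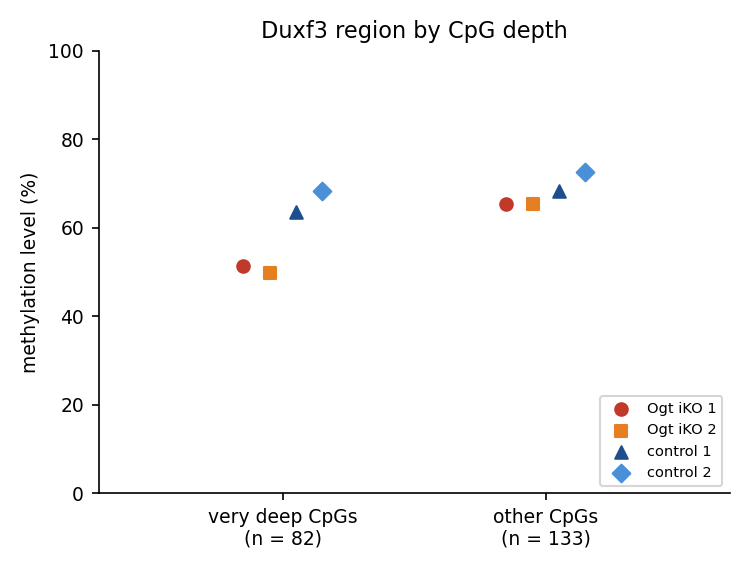
Methylation level (y axis, percent of pooled reads) of the Duxf3 region in each library, for 82 very deep CpGs and the 133 other CpGs. The gap between the Ogt iKO and control symbols is 15.4 points in the first class and 5.19 in the second.

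In 1 kb bins of the genome, the 9 regions gave 130 bins, of which 123 held a listed CpG and 68 met the minimum of 3 CpGs and 10 reads in every library. The Ogt iKO libraries lay below both controls in 30 of the 68 (44.1%), near the 40.5% of all tested bins, and above both in 3. Only 3 bins were called lower, all of them in Duxf3, beside 0.102% of tested bins across the genome. They held 423 to 1095 reads per library, while no tested bin of another member held more than 161. As for the whole Duxf3 region, these reads cannot be assigned to this copy alone. Larger differences in shallower bins, up to -48.4 points in Zscan4d, were not called. The genome-wide share was not matched for depth. Bins at the edge of a region hold some CpGs beyond the 5 kb flank.

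The called Duxf3 bin at chr10:58232001-58233000, just inside the start of transcription, had 42.9% and 39.0% in the Ogt iKO libraries and 55.1% and 64.8% in the controls, a difference of -19.0 points (adjusted p = 0.000534, quasi-binomial fit with limma moderation). The bin at chr10:58224001-58225000, at the far end of the downstream flank, had 44.6% and 44.5% against 61.9% and 62.2% from 826 to 1095 reads per library. Its difference was -17.5 points, and the adjusted p in the same limma-moderated fit was 0.000195. The third, chr10:58225001-58226000, had 57.9% and 58.2% against 72.2% and 75.3%, with an adjusted p of 0.0138 by the same limma-moderated fit. These levels were lower in both Ogt iKO libraries than in both controls. With any single library left out the differences ranged from -23.9 to -14.2 points in the first bin, -17.7 to -17.3 in the second and -17.3 to -14.2 in the third. None was then called, but those fits, like limma on logit levels, called 0 bins in the whole genome and so bear on no single bin. The 3 bins were also not called with edgeR, which called 23 bins genome-wide, or without the very deep CpGs, where the differences were -23.6, -9.58 and -14.0 points. The bin that holds the start itself, with a difference of -4.57 points, was not called. The bin at the other gene end, chr10:58229001-58230000, had 56.3% and 66.1% against 83.1% and 75% and was also not called. Nor was the bin with the lowest control level, inside the gene, which had 48.6% and 42.2% in the Ogt iKO libraries and 44.7% and 34.7% in the controls.

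Tcstv1 had the largest difference of the 9 regions. It lies at chr13:119893387-119894785, and its region held 102 CpGs with 306 to 377 reads per library. The level was 62.5% and 60.1% in the Ogt iKO libraries and 78.0% and 81.7% in the controls. The Ogt iKO libraries averaged 61.3% ± 1.73 and the controls 79.8% ± 2.63 (SD, n = 2 each), and the groups lay far apart. The difference of -18.6 points had an adjusted p of 0.0126 in the limma-moderated quasi-binomial fit, and 0.491% of all gene regions had a larger drop. Without Ogt iKO 2 the difference was -17.3 points and the adjusted p of the same limma-moderated fit 0.108.

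The drop in Tcstv1 lay away from the gene body. The flank of higher coordinates had 56.9% and 47.8% in the Ogt iKO libraries and 77.3% and 76.0% in the controls, a difference of -24.3 points, and the flank of lower coordinates differed by -12.6 points. The gene body, with only 5 CpGs, overlapped between the groups. Neighbouring bins at chr13:119897001-119898000 and chr13:119898001-119899000, with 28 and 22 CpGs, differed by -30.8 and -30.5 points, but with adjusted p-values of 0.0759 and 0.0513 in the limma-moderated fit neither was called. In the first, the levels were 51.9% and 39.6% against 76.5% and 76.5%. The bin with the lowest control level, chr13:119899001-119900000, was separated by -23.5 points from 11 to 13 reads per library and was not called. Of the bins at the gene ends 1 overlapped and the other was not tested. With 2 kb flanks, which leave these bins out, the Tcstv1 difference was -2.14 points (adjusted p = 0.822, limma-moderated quasi-binomial fit).

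Tcstv3, the related gene at chr13:120316862-120318261, showed a smaller difference. Its 79 CpGs had levels of 65.4% and 69.1% in the Ogt iKO libraries and 73.1% and 75.4% in the controls. The groups did not overlap, but the difference of -6.97 points was not called (adjusted p = 0.285, limma-moderated quasi-binomial fit). Its flank of lower coordinates differed by -8.65 points and the opposite flank by 1.77 points with overlapping groups. The largest bin difference, -14.7 points at chr13:120319001-120320000, came from groups that overlapped and was -2.65 points without Ogt iKO 2 and -26.8 without Ogt iKO 1. The CpG-rich bin at chr13:120313001-120314000, with 30 CpGs, had 57.3% and 57.5% against 72% and 65.3%, below both controls without being called, and had the lowest control level of the region. The bins at both gene ends overlapped. The difference between the responses of Tcstv1 and Tcstv3 was not tested.

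Zfp352, the zinc finger gene on the plus strand at chr4:90218820-90225687, was the third member called. Its 114 CpGs had levels of 72.8% and 73.5% in the Ogt iKO libraries and 83.1% and 89.2% in the controls, means of 73.1% ± 0.531 and 86.2% ± 4.32 (SD, n = 2 each). The groups did not overlap, and the difference of -13.0 points had an adjusted p of 0.0318 in the limma-moderated quasi-binomial fit. The call was lost without Ogt iKO 1 (adjusted p = 0.129 in the limma-moderated fit), without Ogt iKO 2 (0.151) and without control 2 (-9.96 points, 0.194).

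The difference in Zfp352 also lay in a flank, here downstream. That flank held 68 of the CpGs and had 68.5% and 71.1% in the Ogt iKO libraries against 83.7% and 91.7%, a difference of -17.9 points. The gene body differed by -6.09 points, and without flanks it was not called (adjusted p = 0.465, limma-moderated quasi-binomial fit). In the upstream flank the groups overlapped, with a difference of -4.09 points. The bin with the largest difference, chr4:90230001-90231000, had 50.0% and 40% against 86.1% and 86.4%, a difference of -41.2 points that did not pass the threshold (adjusted p = 0.0916, limma-moderated fit). The 4 other bins downstream of the gene differed by -7.91 to -26.0 points, each separated between the groups and not called. At the opposite side, the bin with the lowest control level, chr4:90216001-90217000, was 15.6 points higher in the Ogt iKO libraries and not called. It had 70.4% and 90% against 60% and 69.2%, from 10 to 27 reads per library. The bins that hold the gene's start and end had overlapping groups.

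Thinning every library to the depth of the shallowest left these 3 regions called, at -13.5 points in Duxf3, -18.3 in Tcstv1 and -13.5 in Zfp352.

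**Figure D4:**
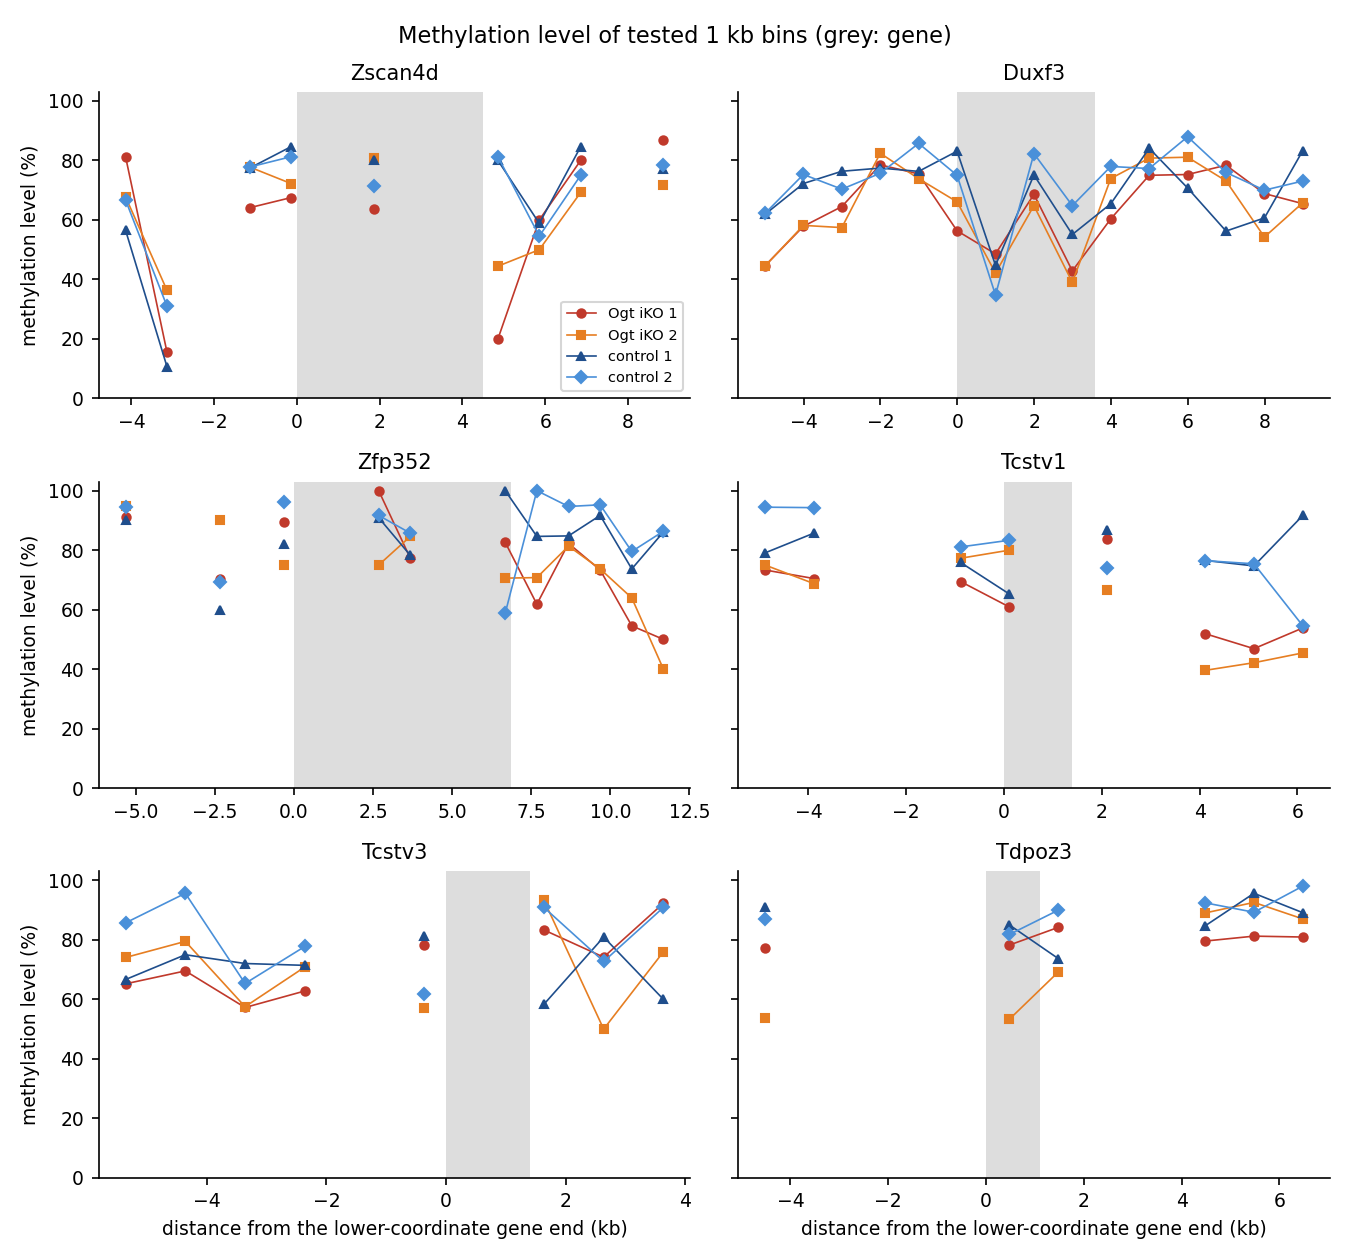
Methylation level (y axis, percent) of tested 1 kb bins against distance in kb from the gene end of lower coordinate, for 6 members with 1 line per library, broken where a bin was not tested; grey marks the gene. In Tcstv1 and Zfp352 the lines part in the flank on the right, and in Zscan4d in the single bin that holds its start, 20% and 44.4% against 80.0% and 81.2%.

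The bins in which Tcstv1 and Zfp352 differed most were rich in CpGs, which did not hold for every member. In Zfp352 all 5 tested bins with at least 10 CpGs had both Ogt iKO libraries below both controls. This was so in 16 of the 26 such bins of the 9 members. The share among all such bins of the genome was not counted. Mean levels of the 5 Zfp352 bins were 64.4% and 65.9% against 84.2% and 91.2%, a difference of -22.5 points. The mean level of the 6 sparser Zfp352 bins overlapped between the groups, with a difference of 0.31 points. In Tcstv1 the 3 dense bins differed by -22.1 points and the 5 sparser ones by -13.1. Tcstv3 (-9.52 and -2.26) and Tdpoz4 (-6.03 and -3.67) had the same order. The order was the opposite in Duxf3, where 11 dense bins differed by -5.54 points and 4 sparser ones by -11.4. It was also the opposite in Zscan4c (2.59 in 1 dense bin and -13.4) and in Tdpoz3 (-6.47 and -15.4). These means give every bin the same weight, whatever its reads. The called Duxf3 bins, with 41, 36 and 21 CpGs, were dense and differed by -19.0, -17.5 and -15.7 points. Without control 1 the order turned in Duxf3, Zscan4c and Tdpoz4. It also turned in Tdpoz3 without Ogt iKO 2 and in Tdpoz4 without Ogt iKO 1. Over all 9 members, 26 dense bins differed by -10.8 points and 42 sparser ones by -7.55. Among all tested bins with a control mean of at least 50%, dense bins differed by -9.04 points and sparser ones by -7.87. That limit was not applied to the member bins, of which 2 had a control mean under 50%. This grouping of member bins was chosen after their values were seen and carries no test.

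With 5 kb flanks and all reads, the Zscan4 genes showed the smallest differences of whole regions. Zscan4d, on the minus strand at chr7:11161643-11166148, had 63.6% and 70.0% in the Ogt iKO libraries and 66.7% and 72.1% in the controls. The groups overlapped, and the difference of -2.60 points was not called (adjusted p = 0.65, limma-moderated quasi-binomial fit). Without Ogt iKO 1 the difference was 0.59 points and without control 2 it was 0.11 points, so its direction rested on single libraries. It was -5.79 points without Ogt iKO 2 and -5.31 without control 1, and with 2 kb flanks it was -12.1 points. Zscan4c, on the plus strand at chr7:11005745-11010547, had 72.3% and 75% against 80.1% and 77.4% from 133 to 166 reads. Both Ogt iKO libraries lay below both controls, and the difference of -5.14 points was not called (adjusted p = 0.486, same limma-moderated fit). Its gene body differed by -15.3 points, with 55.6% and 77.6% against 78.6% and 85.2%, and its flanks by -0.16 and 0.98 points. The largest bin difference in Zscan4c was -35.4 points at chr7:11008001-11009000, with 36.4% and 71.4% against 86.4% and 92.3% from 11 to 22 reads. It was not called (adjusted p = 0.31, limma-moderated fit) and was -17.9 points without Ogt iKO 1. The bin with the lowest control level and the bin at the end of the gene overlapped.

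Zscan4f, on the plus strand at chr7:11397915-11402318, had 78.6% and 66.4% in the Ogt iKO libraries and 72.9% and 79.3% in the controls. Ogt iKO 1 lay at the level of control 2, the groups overlapped, and the difference was -3.61 points (adjusted p = 0.722, limma-moderated quasi-binomial fit) or 2.50 points without Ogt iKO 2. It was -9.71 without Ogt iKO 1, -6.82 without control 1 and -0.39 without control 2, and -8.48 over CpGs with a read in every library. At 92 to 144 reads per library the 95% Wilson intervals were 14.4 to 16.4 points wide. A single bin of the Zscan4f region could be tested, chr7:11403001-11404000, with 83.3% and 73.7% against 85.0% and 94.1%. The groups were apart by -11.1 points (-6.23 without Ogt iKO 2, -6.49 without control 2), without a call, and the bins at the gene ends had too few reads.

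Around starts of transcription, a window from 1000 bases before to 500 after the start was used. Of the 6 members with an annotated strand, 5 met the minimum of 3 CpGs and 10 reads in every library. In 3 of these both Ogt iKO libraries lay below both controls, against 37.3% of all 25387 tested starts. The control means of the 5 starts were 67.9% to 88.5%, and the genome-wide share was not matched for level. The quasi-binomial fit with limma moderation called 0% of all starts, members included, while 2861 starts had an unadjusted p under 0.05. edgeR and limma on logit levels also called 0, with 2848 and 2307 starts under that level.

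The Zscan4d start stood lowest in the Ogt iKO libraries. Its 7 CpGs had 12 of 32 and 9 of 19 reads methylated in the Ogt iKO libraries, 37.5% and 47.4%, and 11 of 13 and 17 of 21 in the controls, 84.6% and 81.0%. The groups lay far apart at a difference of -40.3 points, with an unadjusted p of 0.00972 and an adjusted p of 0.439 in the limma-moderated quasi-binomial fit and 0.279 in edgeR. The 1 kb bin at chr7:11166001-11167000, which shares most of these CpGs, differed by -48.4 points from 10 to 25 reads per library and had the largest absolute difference of the 68 tested member bins (adjusted p = 0.149, limma-moderated fit). Another Zscan4d bin, chr7:11158001-11159000, had the lowest control level of the 68. It lay at 15.6% and 36.4% in the Ogt iKO libraries and 10.7% and 31.0% in the controls, overlapping between the groups. The bin at the far end of the gene differed by -13.1 points, separated and not called.

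At single CpGs of the Zscan4d start the values rested on at most 7 reads per library. The 3 CpGs 79, 86 and 99 bases before the start, in capitals in the sequence given above, lie within 20 bases, where a single read can cover all of them. They together had 1 of 9 CpG calls methylated in Ogt iKO 1 (11.1%, 95% Wilson interval 1.99% to 43.5%) and 1 of 6 in Ogt iKO 2 (16.7%, 3.01% to 56.4%). In control 1 all 3 calls were methylated (100%, 43.9% to 100%), from 1 read at each CpG, and in control 2 all 9 (100%, 70.1% to 100%), from 3 reads at each. These intervals take every call as independent and are too narrow where calls share a read. The CpG 547 bases before the start did not follow this split, with 0 of 7 and 4 of 6 reads methylated in the Ogt iKO libraries, 0 reads in control 1 and 0 of 3 methylated in control 2. The CpG 407 bases inside the gene was methylated in all 7 reads of Ogt iKO 1.

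The near-identical upstream CpGs of Zscan4c and Zscan4f rested on 2 to 6 CpG calls per gene in each Ogt iKO library. In Zscan4c, 4 of 5 and 4 of 6 calls were methylated in the Ogt iKO libraries, and 2 of 3 and 10 of 13 in the controls. In Zscan4f, 0 of 2 and 2 of 4 calls were methylated in the Ogt iKO libraries, and 8 of 12 and 9 of 16 in the controls. The Zscan4c groups overlapped, and both Zscan4f Ogt iKO libraries, at 0% and 50%, lay below its controls at 66.7% and 56.2%. Both genes together gave 57.1% and 60.0% against 66.7% and 65.5% from 7 to 29 calls per library. Reads that fit more than 1 copy cannot be assigned from the deposited counts, and all 3 genes pooled had 5 of 16 and 7 of 16 calls methylated in the Ogt iKO libraries, 31.2% and 43.8%. The controls had 13 of 18 and 28 of 38, or 72.2% and 73.7%. The pooled difference was -35.5 points, with an exact permutation p of 0.333, two-sided and the smallest possible, and it was formed after the values were seen. Zscan4d supplied 9 of 16 and 6 of 16 of the pooled calls in the Ogt iKO libraries, but 3 of 18 and 9 of 38 in the controls. The pooled difference therefore mixes the genes in unequal shares, and without Zscan4d it was -7.52 points.

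**Figure D5:**
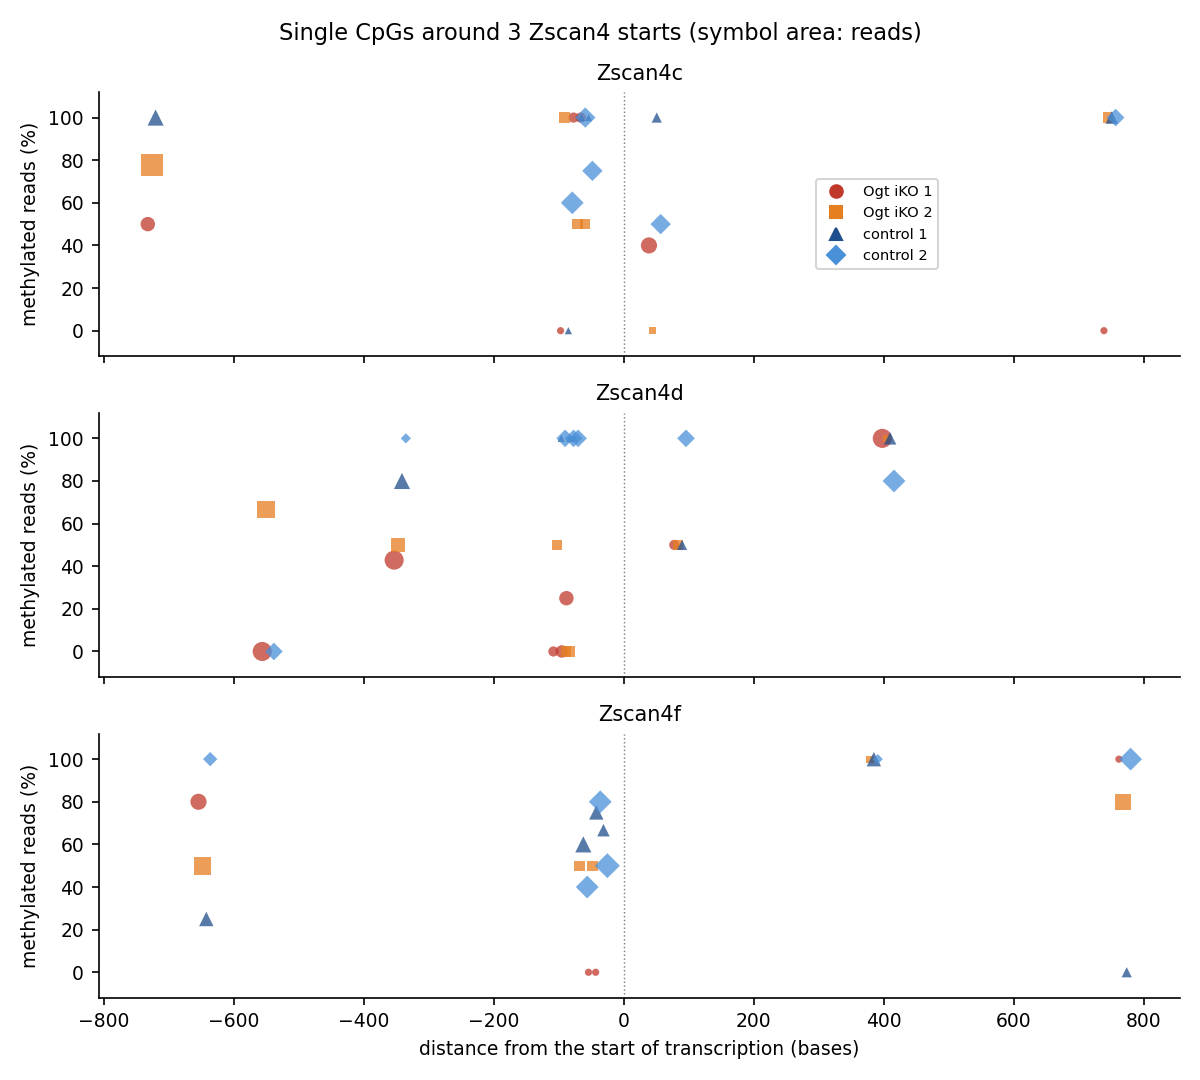
Percentage of methylated reads (y axis) at single CpGs against distance in bases from the start of transcription (x axis) for the 3 Zscan4 genes, with symbol area in proportion to reads. At Zscan4d the CpGs 79 to 99 bases before the start lie at 0% to 50% in the Ogt iKO libraries and at 100% in the controls.

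The other starts of transcription gave smaller differences. The Duxf3 start, with 24 CpGs and 185 to 266 reads, had 51.5% and 54.5% in the Ogt iKO libraries and 61.7% and 74.1% in the controls, apart by -14.8 points and not called (adjusted p = 0.441, limma-moderated quasi-binomial fit). That difference was -4.22 points without the very deep CpGs and -8.64 without control 2. The Zscan4c start had 57.1% and 68.8% against 90% and 70.6% from 10 to 17 reads, and its difference of -17.3 points ranged from -27.1 to -7.64 with 1 library left out. The Zscan4f start had 57.1% and 54.5% against 65.0% and 63.2% and was not tested, since Ogt iKO 1 had 7 reads. At the Zfp352 and Tdpoz4 starts, with differences of -7.35 and -5.89 points, the groups overlapped, and all 4 libraries of Zfp352 stood between 76.0% and 93.3%. With 1 library left out these differences ranged from -12.5 to -2.16 points and from -12 to 0.19 points.

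The Tdpoz genes encode TD and POZ domain proteins. Tdpoz3, the most methylated member in both groups, at chr3:93826020-93827117, had 78.8% and 77.5% in the Ogt iKO libraries and 86.7% and 87.7% in the controls. The groups did not overlap. The difference of -9.03 points had an adjusted p of 0.126 in the limma-moderated quasi-binomial fit and 0.044 in edgeR, and at under 10 points it was not called by either. The flank of lower coordinates, at 76.8% and 60.8% against 85.2% and 82.5%, differed by -15.0 points. The gene body (-12.2) and the opposite flank, with 48 of the 69 CpGs (-5.22), overlapped between the groups. The largest bin difference was -23.4 points at chr3:93821001-93822000, where Ogt iKO 2 stood at 53.8% and Ogt iKO 1 at 77.1%, and it was -11.8 points without Ogt iKO 2. The bin at the gene end of lower coordinate differed by -17.6 points and was not called. It had 78.3% and 53.3% against 85% and 81.8%, so that Ogt iKO 1 lay near the controls. The bin at the other end, which had the lowest control level, overlapped.

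Tdpoz4, on the plus strand at chr3:93796398-93797510, had 71.4% and 68.7% in the Ogt iKO libraries and 73.8% and 79.4% in the controls. The groups were apart by -6.56 points and not called (adjusted p = 0.391, limma-moderated quasi-binomial fit). The difference was -3.76 points without control 2 and -9.99 with unweighted means over CpGs. Its flank of higher coordinates, downstream, differed by -11.5 points from 28 to 37 reads. The bin just before the start, chr3:93795001-93796000, had the largest bin difference, -11.6 points, and its groups overlapped, with Ogt iKO 1 highest at 93.1% and Ogt iKO 2 lowest at 56.2%. Without Ogt iKO 2 this bin was 6.85 points higher in the remaining Ogt iKO library. The bin at the start was separated by -6.03 points and not called, the bin with the lowest control level overlapped, and the bin at the other gene end was not tested.

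Most member bins were highly methylated. Of the 68 tested bins 2 had a control mean under 50%, the Zscan4d and Duxf3 bins described above, and 9 had an Ogt iKO mean under 50%, in Zscan4d, Duxf3, Zfp352 and Tcstv1. A control mean under 20% was found in 0. The protein-coding genes whose 4 library levels lay closest to the members' medians of 71.4%, 69.1%, 73.8% and 79.3% were Slc22a22, Ms4a4a and Cped1. Their mean absolute differences from these medians over the 4 libraries were 0.281, 0.295 and 0.305 points.

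Other genes of the 2-cell-stage programme, a list of 51 names of which 49 matched and were tested, were measured in the same way. All 49 had a lower mean level in the Ogt iKO libraries, by 1.18 to 18.5 points, with a median of -7.10 points beside -7.66 over all gene regions, 96.9% of which were lower. In 39 (79.6%) both Ogt iKO libraries lay below both controls. The list had 2 regions called lower (4.08%), against the 13% of all regions, and 0 called higher. The 13% was not matched for the number of CpGs or reads. The largest difference of the list, -18.5 points in Duxbl3, rested on 91 to 127 reads per library and was not called. Gm4981, whose region overlaps that of Duxf3 and shares some of its deep CpGs, had 57.2% and 52.9% against 63.4% and 70.1%. Zfp750 had 60.1% and 53.6% against 67.3% and 69.1%. Of 20 tested starts in the list 0 were called.

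A second list held 26 regulators of the programme, among them activators of Dux, repressive chromatin factors and DNA methylation enzymes. The fit called 12 of their regions lower (46.2%) and 0 higher, against 13% of all regions, with a median difference of -9.66 points. In 22 of the 26 (84.6%) both Ogt iKO libraries lay below both controls, beside 79.9% of all regions. Their median control level was 55.6%. Dppa4 and Dppa2, DNA-binding activators of Dux, had 40.8% and 43.6% against 56.5% and 57.4%, and 32.6% and 30% against 43.0% and 47.8%. Tet1, which oxidises 5-methylcytosine, differed by -12.9 points, Dnmt1, the maintenance methyltransferase, by -12.6, and Kdm1a, a histone demethylase, by -12.3. These 5 regions had 194 to 1098 CpGs and pooled totals of 717 to 4802 reads, more than every member except Duxf3. The other called regions, those of Usp7, L3mbtl2, Chaf1b, Rif1, Trp53, Setdb1 and Sumo2, differed by -10.1 to -14.6 points. Regions not called included those of Tet2 (-9.71), Uhrf1 (-5.91) and, with overlapping groups, Nelfa (-3.80) and Trim28 (-3.99). The part of region size in the share called was not tested. Of 22 tested starts of the list 0 were called.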

How the data were processed

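The 4 deposited tables, 1 per library, were matched to samples by the group and number in their names. BSMAP, Picard and the mm10 build are named in the submitters' processing notes, without versions or settings. The deposited values used are counts of methylated and of all C or T reads per CpG, per the file headers. The deposited expected count, which discounts C/T variants by the opposite strand, served as an alternative depth, and the authors' fraction was not used.

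Counts were summed per library over gene regions, over 1 kb bins and over starts of transcription, using RefSeq coordinates, with Python 3.11.15, NumPy 2.4.6, pandas 2.3.3, PyArrow 21.0.0, SciPy 1.17.1 and Biopython 1.88. Regions needed 10 CpGs and 20 reads per library. Bins and starts needed 3 CpGs and 10 reads. Every feature of the genome was fitted in R 4.3.3 by a quasi-binomial logistic model with group as the only term, with the dispersion moderated by limma 3.58.1 and kept at 1 or more. p-values were adjusted by Benjamini-Hochberg over all features, and calls needed an adjusted p under 0.05 and 10 points. edgeR 4.0.16, with a common dispersion from at most 20000 features, and a limma fit of logit levels (0.5 added to both counts) were alternatives, beside depth minimums, thinning, other flanks, bins and thresholds, and each library left out. The fit was run on simulated counts at the real read totals, without CpGs that share reads. That run does not show how the fit behaves on the real data.

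All 9 members were described, with every called bin, the bins at gene ends, and those with the lowest control level or largest difference. Other genes came from 2 lists, and likeness was limited to the 3 closest protein-coding genes with at least 50 CpGs. Members and lists were chosen with earlier results of these data known. Features outside these rules were chosen after their values were seen.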

Additional observations from a re-analysis of the deposited data

How the results depend on the processing

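Of all gene regions 6364 were called in either direction. This count was 747 with at least 5 reads per CpG in every library, 9707 with edgeR, 1331 with limma on logit levels, 3228 without flanks, 14925 at 5 points and 2116 at an adjusted p under 0.01, and 1863 to 13553 with 1 library left out. Of all 1 kb bins 1776 were called. There were 4 with at least 1 read per CpG in every library, 0 with at least 5, 494 after thinning, 23 with edgeR, 0 with limma on logit levels, 0 in 500 bp bins, 24008 in 2 kb bins, 76 at an adjusted p under 0.01, and 0 whichever library was left out. The count was 15767 with features of 0 dispersion left out of the moderation, an alternative chosen after seeing the data. The count of called starts was 0 under every setting run.

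Deviations of libraries with the same replicate number were hardly correlated (-0.05, -0.01 and -0.03 for regions, bins and starts). Counting noise at this depth weakens such correlations, so they do not settle whether these libraries shared a batch. With the replicate block 3959 regions and 33 bins were called, and among the members Zfp352 (adjusted p = 0.0896, limma-moderated fit) and the Duxf3 bin at 58225001 (0.0897) were not.

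The members' median difference after subtracting the genome-wide shift, 1.60 points, was -6.29 with at least 5 reads per CpG, where Duxf3 alone remained, -0.35 with unweighted means, and -1.08 to 1.28 with 1 library left out. With 1 library left out the direction turned in the Zscan4d region (-5.79 to 0.59 points; 0.11 without control 2), the Zscan4f region (-9.71 to 2.50), the Tdpoz4 start (-12 to 0.19) and the Tdpoz4 bin at 93795001 (-30 to 6.85), the last 3 without Ogt iKO 2. A lone library left in a group was assumed to vary like the other group. At these depths single bins and starts outside Duxf3 rest on few reads.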
